A study of Rattus norvegicus and Mus musculus with 25 samples.

Results

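The immediate early genes described here are Fos, Fosb, Jun, Junb, Jund, Egr1, Egr2, Ier2, Myc and Dusp1, chosen by symbol from the gene tables of a heart study and not by their values. These 10 genes were found among 28909 rows in each of 2 rat tables and among 54087 rows in the mouse table. The study asked how Reelin and thrombospondin 1 act on cardiomyocyte proliferation through Vldlr, the very low density lipoprotein receptor, and RNA was sequenced from 16 rat and 9 mouse libraries. Values are CPM, the share of a library's gene counts that falls on a gene, scaled to the same total in every library.

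The rat cells were neonatal ventricular cardiomyocytes in culture, from the hearts of Sprague Dawley (SD) rats on day 1 of life, with 2 libraries in each of 8 groups. The si-Vldlr group received 50 nM of a small interfering RNA against Vldlr for 60 h, and its control si-Control_v received control siRNA. The Reelin group was given the secreted glycoprotein Reelin, a ligand of Vldlr, for 48 h, and its control was given PBS, a salt buffer. The Vldlr OE group was transduced for 72 h with AAV9-cTnT-Vldlr, an adeno-associated virus in which the cardiac troponin T promoter drives Vldlr. It is compared with the group labelled Control. The protocol names AAV9-CMV-GFP as the matching virus, but the 2 columns of this group are headed Blank and were assigned to it by elimination, so they are called Control column 1 and 2 here. The si-Thbs1 group received 50 nM siRNA against Thbs1, the gene of thrombospondin 1, for 60 h, with si-Control_t as its control, and these 4 libraries form a table of their own.

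The mouse libraries, 3 per genotype, came from hearts of C57BL/6 mice on day 1 and are labelled cardiomyocytes. Myh6-Cre;Vldlr f/f mice carry both Vldlr alleles flanked by loxP sites and a Cre recombinase driven by the Myh6 promoter, which is active in cardiomyocytes. Myh6-Cre;Vldlr f/+ mice carry the same Cre and a single floxed allele, and Vldlr f/f mice carry both floxed alleles and no Cre. Cre presence and Vldlr loss therefore cannot be told apart in either comparison with Vldlr f/f.

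Immediate early genes are transcribed within minutes of a stimulus, without new protein synthesis, because the factors that switch them on are already in the cell. Growth factor and stress signals reach them through MAP kinases, which act on serum response factor and its partners at CArG boxes, and through cyclic AMP and calcium, which act on CREB at cyclic AMP response elements. Fos and Jun proteins pair to form the transcription factor AP-1, Egr1 and Egr2 are zinc-finger factors, Ier2 is a short-lived nuclear protein, Myc drives growth and division genes, and Dusp1 is a phosphatase that turns MAP kinases off. Their transcripts decay fast, and in heart tissue they are known to respond to pressure, stretch and tissue dissociation.

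Promoters are shown to describe where the 2 kinds of response element just named occur in these genes. RefSeq promoters of the rat assembly GRCr8, running from 250 bases before to 50 after each annotated start, were matched by symbol for 7 of the 10 genes, all but Fos, Jun and Myc. A cyclic AMP response element, searched as TGACGTCA, which reads the same on both strands, lay in 3 of the 7 windows and in 1.83% of 33469 rat promoters. A CArG box, searched by its consensus on both strands, lay in 2 of the 7, Egr1 and Egr2, and in 1.64% of all promoters. An AP-1 site, searched as TGACTCA on either strand, lay in 0 of the 7 and in 4.63% of all promoters. Fosb and Junb had no match to any of these motifs. These motifs do not share letters at any match below, and a match is a description of the sequence only. The 4 promoters below carry 1 match each, in capitals, and are written in the direction of transcription. The CArG box of Egr2 begins 83 bases before the start (chr20:21054392-21054691, minus strand). The cyclic AMP response element begins 221 bases before the start in Jund (chr16:18769722-18770021, minus strand), 66 bases before it in Ier2 (chr19:40399123-40399422, plus strand) and 124 bases before it in Dusp1 (chr10:17184603-17184902, plus strand).
Egr2: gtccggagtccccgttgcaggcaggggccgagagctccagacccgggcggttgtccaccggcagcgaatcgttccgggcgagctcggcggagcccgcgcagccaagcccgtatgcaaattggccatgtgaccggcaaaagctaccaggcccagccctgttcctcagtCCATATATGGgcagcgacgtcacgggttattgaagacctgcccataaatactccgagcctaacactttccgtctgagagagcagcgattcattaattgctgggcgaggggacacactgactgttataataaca
Jund: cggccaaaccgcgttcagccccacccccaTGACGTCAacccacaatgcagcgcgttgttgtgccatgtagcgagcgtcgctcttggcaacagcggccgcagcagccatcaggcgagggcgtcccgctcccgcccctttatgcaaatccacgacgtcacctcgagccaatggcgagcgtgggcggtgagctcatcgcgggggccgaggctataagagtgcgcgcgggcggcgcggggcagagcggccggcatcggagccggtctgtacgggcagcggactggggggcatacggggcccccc
Ier2: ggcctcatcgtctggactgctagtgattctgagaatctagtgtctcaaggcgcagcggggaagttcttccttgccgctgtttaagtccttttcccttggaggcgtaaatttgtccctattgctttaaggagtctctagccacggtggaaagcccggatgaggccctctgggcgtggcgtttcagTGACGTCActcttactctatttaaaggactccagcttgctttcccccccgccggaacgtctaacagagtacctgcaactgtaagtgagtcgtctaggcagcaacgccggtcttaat
Dusp1: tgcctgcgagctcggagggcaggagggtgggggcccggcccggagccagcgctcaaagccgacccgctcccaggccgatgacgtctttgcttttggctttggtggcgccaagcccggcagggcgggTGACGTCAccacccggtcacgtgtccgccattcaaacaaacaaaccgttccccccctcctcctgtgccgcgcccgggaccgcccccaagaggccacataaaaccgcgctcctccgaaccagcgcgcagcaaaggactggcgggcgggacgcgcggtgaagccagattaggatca

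Differences between groups were tested with limma on log2(CPM + 1), with all groups of a table in 1 fit and Benjamini-Hochberg adjustment over all genes tested, and a gene was called at an adjusted p under 0.05. Fold changes below are log2 differences on that scale, which understates the change of genes with few CPM. Each of the 10 genes passed the filter on low values in every comparison. None was called in any of the 7 comparisons, and the smallest adjusted p of any of them was 0.679. At an unadjusted p under 0.05 there was 1 in the fits without pairing, Dusp1 in Myh6-Cre;Vldlr f/+ hearts set against Vldlr f/f hearts. Whether the libraries within a group stem from separate cultures or animals is not stated in the labels, so each p-value measures library-to-library spread that could be technical.

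The state of the libraries touches these results in several ways. Vldlr itself had 183 and 171 CPM under its siRNA and 252 and 257 CPM under si-Control_v, and 656 and 889 CPM in Vldlr OE, against 577 and 379 CPM in Control. Thbs1 had 745 and 546 CPM in si-Thbs1, against 943 and 892 CPM in si-Control_t. Mouse Vldlr ranged from 71.3 to 85.1 CPM in Myh6-Cre;Vldlr f/f and from 98.4 to 112 CPM in Myh6-Cre;Vldlr f/+, against 109 to 195 CPM in Vldlr f/f. The rat cultures carried fibroblast markers beside cardiomyocyte markers, with collagen genes the highest of the fibroblast markers. In the 12-library table Col1a1 was at 17600 to 26200 CPM and Col1a2 at 4850 to 7040. Postn was at 698 to 1490 CPM, Dcn at 289 to 793, Pdgfra at 208 to 334 and Tcf21 at 35.4 to 72.3 in that table. Among cardiomyocyte markers there, Actc1 was at 9270 to 13200 CPM, Myh7 at 6560 to 9960, Tnnt2 at 2290 to 3680 and Myh6 at 631 to 2690. All 6 fibroblast markers were detected, and their sum was 20860 to 34410 CPM over the 16 rat libraries. The cardiomyocyte markers summed to 18290 to 35700 CPM in the same libraries, and smooth muscle and pericyte markers to 1059 to 5959 CPM. In the mouse libraries Myh6 was at 14900 to 20500 CPM, the cardiomyocyte sum at 38720 to 50360 CPM and the fibroblast sum at 1891 to 3491 CPM. Erythroid markers summed to 1808 to 3953 CPM and endothelial markers to 659 to 1066 CPM there. Within Vldlr f/f the erythroid sum was 3841, 1808 and 1818 CPM. It was 3740, 3953 and 2981 CPM in Myh6-Cre;Vldlr f/+ and 2019, 2133 and 3651 CPM in Myh6-Cre;Vldlr f/f. The part of this mixture in the values was not tested. The immediate early genes are not particular to a cell type, and in bulk libraries fewer cells of a type and less RNA per cell cannot be told apart.

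None of the AP-1 genes passed the test after knockdown of Vldlr, and the groups overlapped for each of them. Fos had 124 and 120 CPM in the si-Vldlr libraries, against 143 and 118 CPM in si-Control_v, so that both si-Vldlr libraries lay between the control libraries. Its fold change was -0.09 ± 0.14 (SE), with a 95% interval of -0.40 to 0.22 and an adjusted p of 0.816. Jun had 150 and 154 CPM after si-Vldlr, against 174 and 123 CPM in si-Control_v. Junb, which pairs with Fos and often opposes Jun, had 297 and 309 CPM after si-Vldlr, against 294 and 298 CPM in si-Control_v. Jund had 180 and 184 CPM after si-Vldlr, against 200 and 152 CPM in si-Control_v. The si-Control_v libraries of Jun and Jund lay on either side of the treated ones. Fosb had 12.7 and 19.5 CPM after si-Vldlr, against 38.2 and 17.2 CPM in si-Control_v, which also overlap.

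Of the other genes in the Vldlr knockdown, Ier2 and Dusp1 separated the groups. Dusp1 had 131 and 129 CPM after si-Vldlr, against 123 and 117 CPM in si-Control_v, a fold change of 0.12 ± 0.11 (SE) with an adjusted p of 0.679. Ier2 had 99.5 and 102 CPM after si-Vldlr, against 106 and 107 CPM in si-Control_v, a fold change of -0.08 ± 0.11 (SE). Groups without overlap were common here: 48.5% of the 13860 genes tested had none, so 2 of 10 is below that share. Egr1 had 318 and 291 CPM after si-Vldlr, against 358 and 310 CPM in si-Control_v, and Egr2 had 33.1 and 32.7 CPM under si-Vldlr and 48.5 and 31.1 CPM under si-Control_v. Myc had 45.0 and 39.3 CPM under si-Vldlr and 47.7 and 31.9 CPM under si-Control_v, and for Egr2 and Myc both treated libraries lay between the control libraries. Over all genes 0.0289% were called and 11.8% fell below 0.05 without adjustment, where the immediate early genes had 0 of 10 at either threshold. Their median fold change was -0.02, as was that of all genes.

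**Figure D1:**
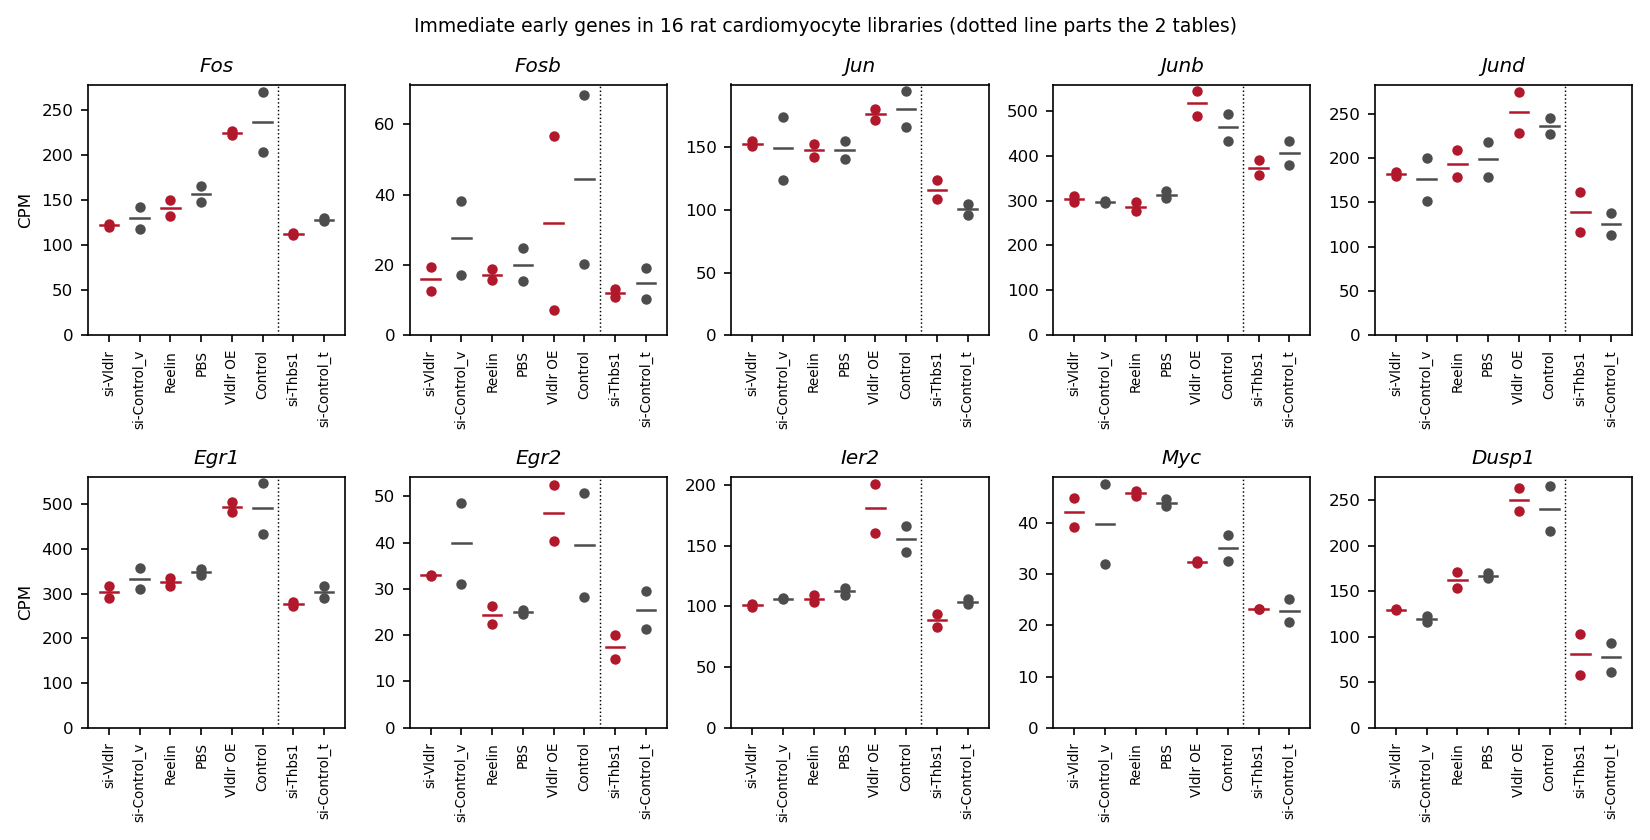
CPM of each immediate early gene in the 16 rat libraries, with a linear axis from 0 in each panel. Points are libraries, bars are group means, red marks si-Vldlr, Reelin, Vldlr OE and si-Thbs1 and grey the groups they are compared with, and for Fos the Vldlr OE and Control libraries at 203 to 270 CPM stand above all others of their table.

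Reelin, whose receptor is Vldlr, gave no called difference in these genes. Fos had 132 and 151 CPM in Reelin, against 166 and 148 CPM in PBS, which overlap, and its fold change was -0.15 ± 0.14 (SE) with an interval of -0.46 to 0.16. Junb had 276 and 296 CPM in Reelin, against 321 and 306 CPM in PBS, a fold change of -0.13 ± 0.09 (SE). Egr1 had 317 and 336 CPM in Reelin, against 356 and 342 CPM in PBS. Ier2 had 103 and 109 CPM in Reelin, against 110 and 115 CPM in PBS. Both Reelin libraries were below both PBS libraries for these last 3 genes, while Myc was above, with 45.3 and 46.3 CPM in Reelin against 43.3 and 44.6 CPM in PBS. Non-overlapping groups made up 32.8% of all genes, and 4 of 10 is close to that share.

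The remaining genes overlapped between Reelin and PBS. Jun had 142 and 152 CPM in Reelin, against 140 and 154 CPM in PBS, a fold change of 0.002 ± 0.14 (SE). Jund had 178 and 209 CPM with Reelin and 179 and 218 CPM with PBS. Dusp1 had 154 and 171 CPM with Reelin and 170 and 164 CPM with PBS, so the phosphatase, too, differed by less than its spread. Egr2 had 22.5 and 26.2 CPM with Reelin and 24.5 and 25.5 CPM with PBS. Fosb had 15.8 and 18.8 CPM with Reelin and 24.8 and 15.4 CPM with PBS. Reelin replicate 2 exceeded Reelin replicate 1 in all 10 genes, so the spread within the treated group ran in a single direction across the set. Among all genes 0.0144% were called, and an unadjusted p under 0.05 was found for 1.36%. The median fold change of the 10 genes was -0.06, with 8 of them negative, against 0.02 for all genes, of which 58.5% were positive.

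Overexpression of Vldlr gave overlapping groups for all 10 genes. Ier2, with 201 and 160 CPM in Vldlr OE against 166 and 145 CPM in Control, had the smallest p of the set, with a fold change of 0.21 ± 0.11 (SE), an interval of -0.03 to 0.45 and an adjusted p of 0.958. Junb had 544 and 488 CPM in Vldlr OE, against 493 and 433 CPM in Control. Fos had 222 and 227 CPM in Vldlr OE, against 270 and 203 CPM in Control, and Egr1 had 484 and 505 CPM in Vldlr OE, against 548 and 434 CPM in Control. For Fos and Egr1 both Vldlr OE libraries lay between the Control columns. Jun had 180 and 171 CPM with Vldlr OE and 165 and 194 CPM with Control, and Jund had 275 and 229 CPM with Vldlr OE and 227 and 245 CPM with Control. Dusp1 had 263 and 238 CPM with Vldlr OE and 265 and 216 CPM with Control. For each of these 3 genes the spread within a group was larger than the difference between the group means. Egr2 had 40.4 and 52.3 CPM with Vldlr OE and 50.7 and 28.3 CPM with Control, and Myc had 32.2 and 32.7 CPM with Vldlr OE and 37.7 and 32.5 CPM with Control.

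Fosb was the least steady of the genes in this experiment, with 7.30 and 56.7 CPM in Vldlr OE, against 68.3 and 20.4 CPM in Control. Its fold change of -0.82 ± 0.80 (SE) became -2.22 without Vldlr OE replicate 2 and 0.58 without replicate 1, so a single library set its sign. In this comparison 0.00722% of genes were called, 4.52% reached an unadjusted p under 0.05 and 25% had groups without overlap. The immediate early genes had 0 of 10 by each of these rules.

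The Vldlr OE and Control libraries together stood apart from the other 8 libraries of the table. Fos ranged from 203 to 270 CPM in these 4 libraries, against 118 to 166 CPM in the other 8. Junb ranged from 433 to 544 CPM in the Vldlr OE and Control libraries, against 276 to 321 CPM in the other 8, and Jund from 227 to 275 CPM in those 4, against 152 to 218 CPM in the other 8. The same held for Egr1, at 434 to 548 CPM in the 4 and 291 to 358 CPM in the 8. It held for Ier2, at 145 to 201 CPM in the 4 and 99.5 to 115 CPM in the 8, and for Dusp1, at 216 to 265 CPM in the 4 and 117 to 171 CPM in the 8. These 6 of 10 genes lay wholly above, and 0 lay wholly below, where 5.22% of all genes lay above and 5.53% below. Jun, Fosb, Egr2 and Myc overlapped, and Myc ran from 32.2 to 37.7 CPM in the 4, against 31.9 to 47.7 CPM in the 8. No test was made of this difference. Vldlr OE received a virus for 72 h, the siRNA groups were treated for 60 h and the Reelin and PBS groups for 48 h. Whether the Control libraries received a virus, and for how long, is not known here. That they share an experiment with Vldlr OE is inferred from their assignment by elimination and not stated in the labels. The experiment, virus and time cannot be told apart. Vldlr OE and Control share the higher level.

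Which genes followed Fos most closely over the 12 libraries was measured as the root mean square difference of their centred log2 profiles. Among 10260 genes averaging at least 5 CPM, the nearest were Adgrd1 (0.0959), Klf4 (0.106), Cyr61 (0.117), Rerg (0.123) and Slc40a1 (0.132), where Fos itself varied by 0.383 about its mean. Klf4 and Cyr61 are immediate early genes themselves, a Krüppel-like transcription factor and a secreted matrix protein. The profiles share libraries and the higher level of the Vldlr OE and Control libraries, so the likeness describes these 12 libraries only.

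In the Thbs1 experiment Fos varied little within groups. Fos had 111 and 114 CPM in si-Thbs1, against 127 and 131 CPM in si-Control_t, and the groups did not overlap. Its fold change was -0.19 ± 0.12 (SE), with an interval of -0.49 to 0.11 and an adjusted p of 1. Egr2 had 20.1 and 14.8 CPM in si-Thbs1, against 21.3 and 29.5 CPM in si-Control_t, a fold change of -0.51 ± 0.23 (SE) with an interval of -1.09 to 0.07. Egr1 had 281 and 273 CPM in si-Thbs1, against 290 and 317 CPM in si-Control_t, and Ier2 had 93.8 and 83.4 CPM in si-Thbs1, against 106 and 102 CPM in si-Control_t. Jun ran the other way, with 124 and 108 CPM in si-Thbs1 against 95.6 and 104 CPM in si-Control_t. The si-Thbs1 libraries thus lay below for 4 genes and above for 1, and 5 of 10 compares with 29.3% of all 13416 genes tested.

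The other genes overlapped between si-Thbs1 and si-Control_t. Junb had 390 and 356 CPM with si-Thbs1 and 431 and 380 CPM with si-Control_t, and Jund had 162 and 116 CPM with si-Thbs1 and 138 and 114 CPM with si-Control_t. Myc had 23.2 and 23.1 CPM with si-Thbs1 and 20.6 and 25.1 CPM with si-Control_t. Fosb had 11.1 and 13.3 CPM with si-Thbs1 and 10.4 and 19.2 CPM with si-Control_t, and for Myc and Fosb both si-Thbs1 libraries lay between the control libraries. Dusp1 had 103 and 58.0 CPM with si-Thbs1 and 93.1 and 61.2 CPM with si-Control_t. Replicate 1 of si-Thbs1 was the higher library for 8 of the 10 genes. That library also had a summed cardiomyocyte marker level of 35700 CPM, against 18290 CPM in replicate 2, and the part of this in the values was not tested. The share called over all genes was 0.0447%, and an unadjusted p under 0.05 was found for 5.52%. The immediate early genes had 0 of 10 at both thresholds and a median fold change of -0.12, against 0.03 over all genes.

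**Figure D2:**
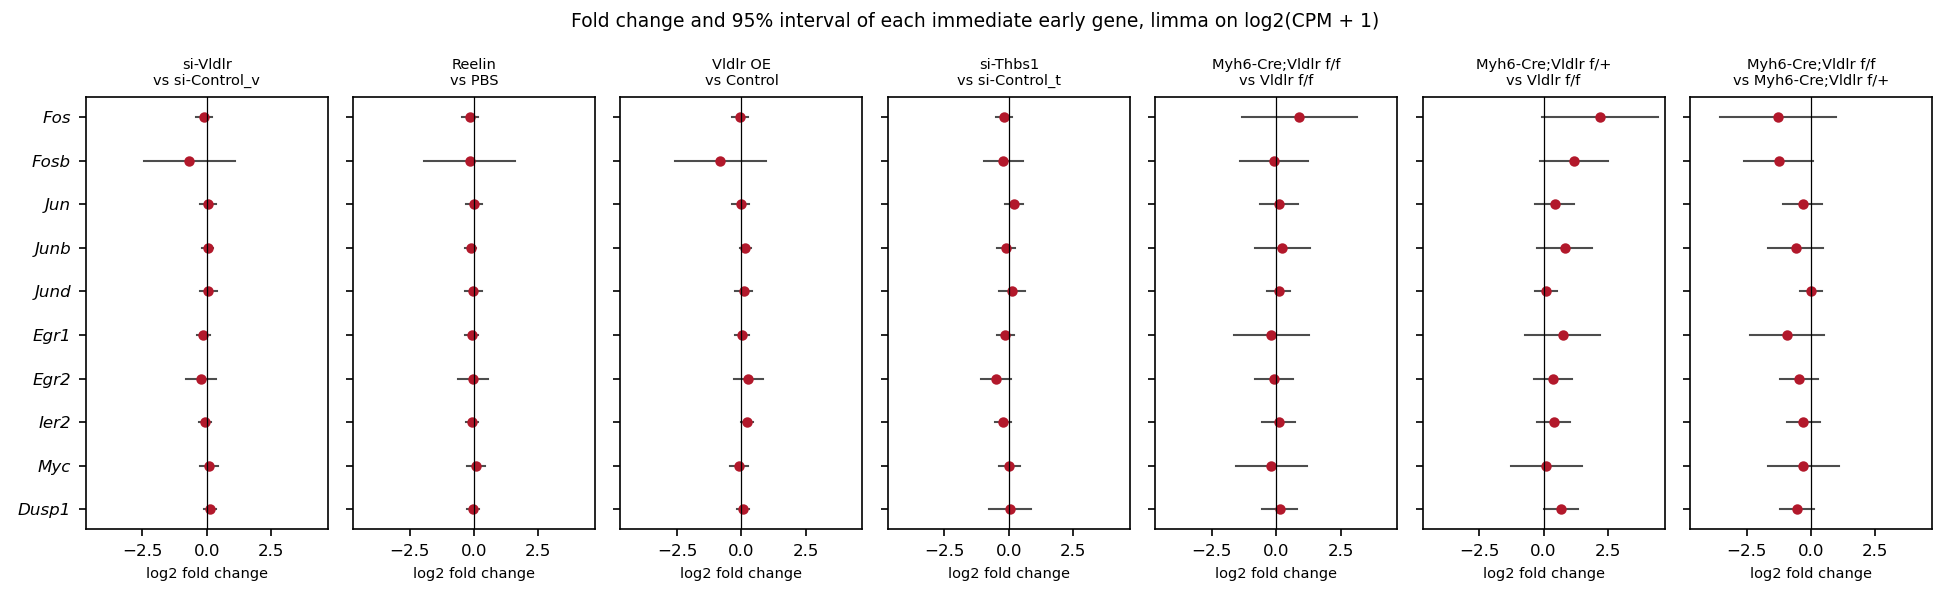
Log2 fold change of each immediate early gene in the 7 comparisons, with points for limma estimates and lines for 95% intervals. The intervals of all genes cover 0 except Dusp1 in Myh6-Cre;Vldlr f/+ set against Vldlr f/f, at 0.02 to 1.35, and the mouse intervals are widest for Fos.

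In the mouse hearts the Fos family genes differed widely between libraries of the same genotype. Fos had 13.5, 3.73 and 15.1 CPM in Myh6-Cre;Vldlr f/f and 75.6, 6.77 and 25.9 CPM in Myh6-Cre;Vldlr f/+, against 0.533, 22.0 and 3.76 CPM in Vldlr f/f. The highest library of a genotype exceeded the lowest by 4.04-fold in Myh6-Cre;Vldlr f/f, 11.2-fold in Myh6-Cre;Vldlr f/+ and 41.3-fold in Vldlr f/f. Fosb had 1.39, 1.22 and 0.616 CPM in Myh6-Cre;Vldlr f/f and 13.3, 1.27 and 2.60 CPM in Myh6-Cre;Vldlr f/+, against 0.519, 2.63 and 0.829 CPM in Vldlr f/f. In both genes the highest value was that of Myh6-Cre;Vldlr f/+ replicate 1 and the lowest that of Vldlr f/f replicate 1, and all 3 genotypes overlapped.

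Taken over all genotypes, the Jun family genes varied less between libraries of a genotype than Fos and Fosb did, and Jund least of all. Within Myh6-Cre;Vldlr f/f, however, the highest library exceeded the lowest by 2.335-fold for Junb and 2.265-fold for Fosb. Jund had 250, 236 and 241 CPM in Myh6-Cre;Vldlr f/f and 242, 245 and 246 CPM in Myh6-Cre;Vldlr f/+, against 201, 204 and 287 CPM in Vldlr f/f. It was thus nearly level in both genotypes that carry Cre. Jun had 90.9, 73.4 and 90.4 CPM in Myh6-Cre;Vldlr f/f and 117, 63.4 and 158 CPM in Myh6-Cre;Vldlr f/+, against 57.8, 75.8 and 109 CPM in Vldlr f/f. Junb had 20.6, 9.66 and 22.6 CPM in Myh6-Cre;Vldlr f/f and 30.3, 12.1 and 44.1 CPM in Myh6-Cre;Vldlr f/+, against 9.30, 20.0 and 14.3 CPM in Vldlr f/f. Replicate 2 was low for Jun and Junb in both Cre genotypes.

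Among the zinc-finger factors, Egr1 had 36.8, 15.8 and 23.3 CPM in Myh6-Cre;Vldlr f/f and 80.7, 14.2 and 84.1 CPM in Myh6-Cre;Vldlr f/+, against 15.5, 50.1 and 25.9 CPM in Vldlr f/f. Egr2 was near the filter, at 1.06, 0.408 and 0.901 CPM in Myh6-Cre;Vldlr f/f and 2.06, 0.423 and 2.36 CPM in Myh6-Cre;Vldlr f/+, against 0.879, 0.736 and 1.07 CPM in Vldlr f/f. Both were high in replicates 1 and 3 of Myh6-Cre;Vldlr f/+ and low in its replicate 2. Ier2 had 51.7, 34.1 and 34.9 CPM in Myh6-Cre;Vldlr f/f and 54.4, 35.8 and 58.8 CPM in Myh6-Cre;Vldlr f/+, against 26.2, 44.6 and 42.6 CPM in Vldlr f/f. Dusp1 had 45.4, 37.5 and 69.3 CPM in Myh6-Cre;Vldlr f/f and 72.2, 53.7 and 97.9 CPM in Myh6-Cre;Vldlr f/+, against 38.0, 40.8 and 57.5 CPM in Vldlr f/f. Myc had 10.8, 8.0 and 30.1 CPM in Myh6-Cre;Vldlr f/f and 14.5, 7.73 and 44.1 CPM in Myh6-Cre;Vldlr f/+, against 22.2, 18.8 and 9.57 CPM in Vldlr f/f. For Myc the replicates 3 of both Cre genotypes were the highest libraries.

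**Figure D3:**
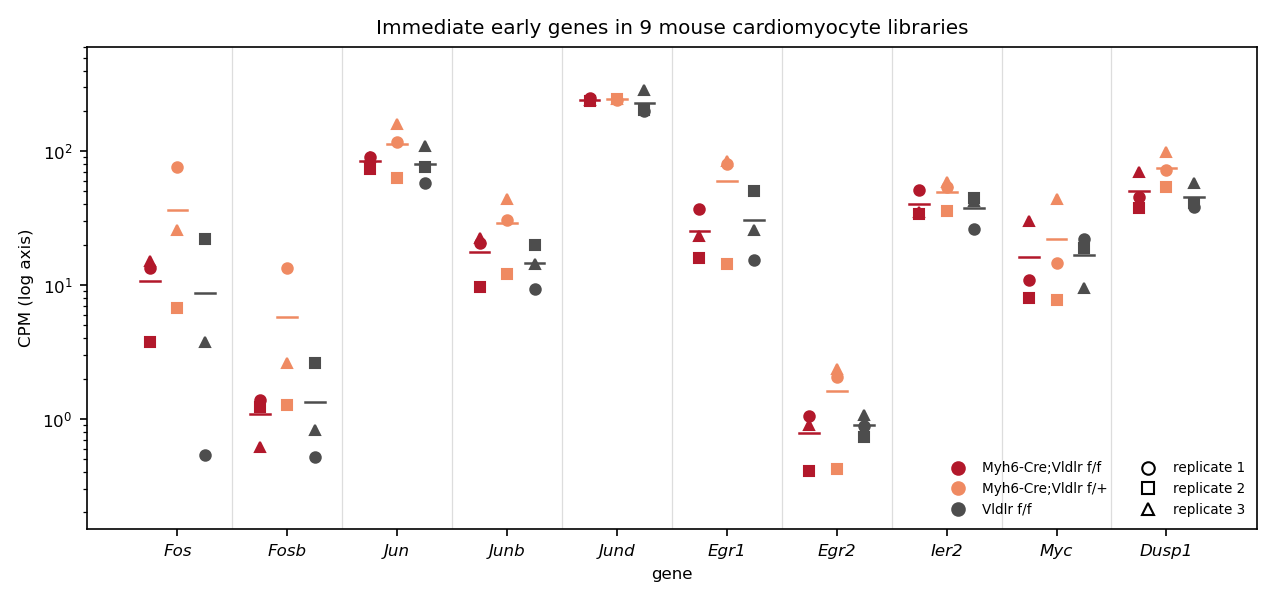
CPM on a log axis of each immediate early gene in the 9 mouse libraries, with colours for genotypes, symbols for replicates and bars for group means. Fos spans 0.533 to 75.6 CPM while Jund stays between 201 and 287 CPM, and the genotypes overlap for every gene.

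Between Myh6-Cre;Vldlr f/f and Vldlr f/f hearts, 6 of the 10 genes had a positive fold change and 4 a negative one. Fos had a fold change of 0.90 ± 1.01 (SE), with an interval of -1.34 to 3.15 and an adjusted p of 0.997. It was -0.02 without Vldlr f/f replicate 1 and 1.93 without Vldlr f/f replicate 2, so it rested on which control libraries were counted. No gene of the set had groups without overlap, against 8.52% of the 14922 genes tested, and 0 of 10 had an unadjusted p under 0.05, against 3.04%. Over all genes 0% were called. The median fold change of the 10 was 0.09, against -0.11 over all genes, of which 33.9% were positive. Scaling by median ratios moved that all-gene median by 0.109, and with it the median of the 10 genes became 0.22, still with 6 positive.

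Between Myh6-Cre;Vldlr f/+ and Vldlr f/f hearts, all 10 fold changes were positive, against 41.7% of all genes, and their median was 0.56, against -0.06. Fos had the largest, 2.19 ± 1.01 (SE), with an interval of -0.05 to 4.43 and an adjusted p of 0.999. It ranged from 1.27 to 3.22 when single libraries were left out. Fosb followed at 1.18 ± 0.60 (SE), which became 0.40 without Myh6-Cre;Vldlr f/+ replicate 1. Junb had 0.83 ± 0.48 (SE), and 0.44 or 1.34 without Myh6-Cre;Vldlr f/+ replicate 3 or 2. Egr1 had 0.74 ± 0.65 (SE), and 0.32 or 1.56 without those same libraries. Dusp1 had 0.68 ± 0.30 (SE), and 0.47 without Myh6-Cre;Vldlr f/+ replicate 3. Its interval, 0.02 to 1.35, was the only one above 0, with an unadjusted p of 0.0456 and an adjusted p of 0.999. Dusp1 is 1 of 10 genes at that threshold, against 2.43% of all genes. No gene of the set had groups without overlap, against 5.97% of all genes, and 0% of genes were called. The 10 genes were read in the same 6 libraries and varied together among them, so their common sign is not 10 separate observations.

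Between Myh6-Cre;Vldlr f/f and Myh6-Cre;Vldlr f/+ hearts, which share the Cre, all 10 fold changes were negative. This comparison uses the same Myh6-Cre;Vldlr f/+ libraries as the one before, so the signs are tied. Fos had -1.29 ± 1.01 (SE), with an interval of -3.53 to 0.95, and Fosb had -1.26 ± 0.60 (SE), with an interval of -2.58 to 0.07. Jund had -0.01 ± 0.19 (SE), the smallest in size, and its sign turned under median-ratio scaling, to 0.06. The median of the 10 was -0.51, against -0.06 over all genes, of which 39.8% were positive. Of all genes 0% were called, 0.925% had an unadjusted p under 0.05 and 2.49% had groups without overlap, against 0 of 10 immediate early genes by each rule.

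Same-numbered libraries of these Cre genotypes deviated together, so the comparison was also made with the replicate number as a block and the 6 libraries alone, an alternative chosen after seeing the data. Dusp1 had 45.4, 37.5 and 69.3 CPM in Myh6-Cre;Vldlr f/f beside 72.2, 53.7 and 97.9 CPM in the same-numbered Myh6-Cre;Vldlr f/+ libraries, and was lower in 3 of 3 pairs. Fos, Fosb, Junb, Egr2 and Ier2 were also lower in 3 of 3 pairs, which makes 6 of 10 genes. Of the 14461 genes tested, 18.3% were. Between replicates 2 the values were close for Egr2 (0.408 and 0.423 CPM), Fosb (1.22 and 1.27 CPM) and Ier2 (34.1 and 35.8 CPM). Those of Fos, Junb and Dusp1 lay further apart. Mitochondrial transcripts made up 24.7% and 17.9% of these libraries, and the part of this in the signs was not tested. Jun, Jund, Egr1 and Myc were lower in 2 pairs and higher in 1. With the block the fold changes were the same and the intervals narrower, at -2.16 to -0.42 for Fos and -0.94 to -0.17 for Dusp1. An unadjusted limma p under 0.05 was found for 5 of 10 genes, Fos (0.0103), Dusp1 (0.0123), Junb (0.0274), Fosb (0.0318) and Egr1 (0.0378), and for 3.67% of all genes. None was called, with a smallest adjusted p of 0.976 among the 10, and 0% of all genes were called. The 10 genes again share the same 3 pairs, and the labels do not say what a number stands for. The block was chosen because these pairs correlated, at 0.333 to 0.459, so the narrower intervals and smaller p-values are not independent of that choice. Differently numbered libraries correlated at -0.385 to 0.0854 between the Cre genotypes. With Vldlr f/f they correlated at -0.273 to 0.443 for Myh6-Cre;Vldlr f/f and at -0.256 to 0.412 for Myh6-Cre;Vldlr f/+, so different numbers could correlate as strongly.

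Within genotypes the genes shared an order of libraries. Myh6-Cre;Vldlr f/f replicate 2 was the lowest library of its genotype for 9 of the 10 genes. Myh6-Cre;Vldlr f/+ replicate 2 was the lowest for 9 and replicate 3 the highest for 8. Vldlr f/f replicate 1 was the lowest for 8. The summed level of the 10 genes ran from 420 to 528 CPM in Myh6-Cre;Vldlr f/f and from 440 to 764 CPM in Myh6-Cre;Vldlr f/+, against 372 to 552 CPM in Vldlr f/f. Mitochondrial transcripts made up 24.7% of Myh6-Cre;Vldlr f/f replicate 2 and 17.9% of Myh6-Cre;Vldlr f/+ replicate 2, against 14.2% of Vldlr f/f replicate 1, where the 9 libraries ran from 14.2% to 24.7%. The part of handling or RNA quality in the order was not tested.

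**Figure D4:**
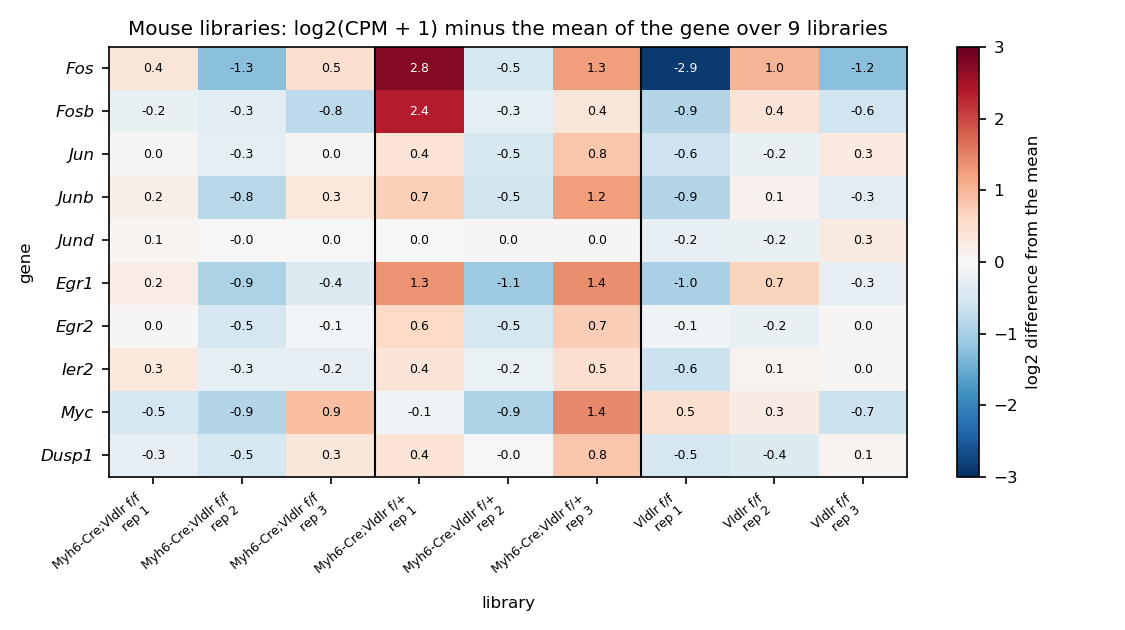
Mouse libraries in columns, by genotype, and immediate early genes in rows, coloured by log2(CPM + 1) minus the mean of the gene over the 9 libraries. Replicate 1 of Myh6-Cre;Vldlr f/+ is high for Fos and Fosb at 75.6 and 13.3 CPM, replicate 3 is high for Myc at 44.1 CPM, and Jund is nearly flat.

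How far a gene varied between libraries of a group was set against all genes by its within-group SD of log2(CPM + 1). In mouse, Fos had an SD of 1.59, larger than 99.5% of the 14922 genes, and Egr1 (1.00), Myc (0.946) and Fosb (0.903) each exceeded more than 95% of genes. Junb had 0.707, larger than 90.4% of genes, and Jun 0.475, larger than 70.7%. Egr2 had 0.432, Dusp1 0.400 and Ier2 0.375, nearer to the median of all genes, 0.363. Jund had 0.169, larger than 5.6% of genes. In the 12 rat libraries of the first table the order differed, with Fosb at 1.03, larger than 99.2% of genes, and Egr2 at 0.322. The other 8 lay between 0.0811 for Junb and 0.183 for Myc, around the all-gene median of 0.138. Among genes of similar level in that table (mean log2 within 0.5), Fos, Jun, Jund and Myc exceeded 82.4% to 86.1%. By that measure Egr1, Ier2 and Dusp1 exceeded 49.8% to 56.9%, and Junb 21.4%. Fos, the most variable in mouse, had 0.160 there and 0.0263 in the si-Thbs1 table, larger than 2.21% of genes. In the si-Thbs1 table Dusp1 had 0.509 and Fosb 0.431, against an all-gene median of 0.165. SDs rest on 2 or 3 libraries per group, and no test was made between species.

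**Figure D5:**
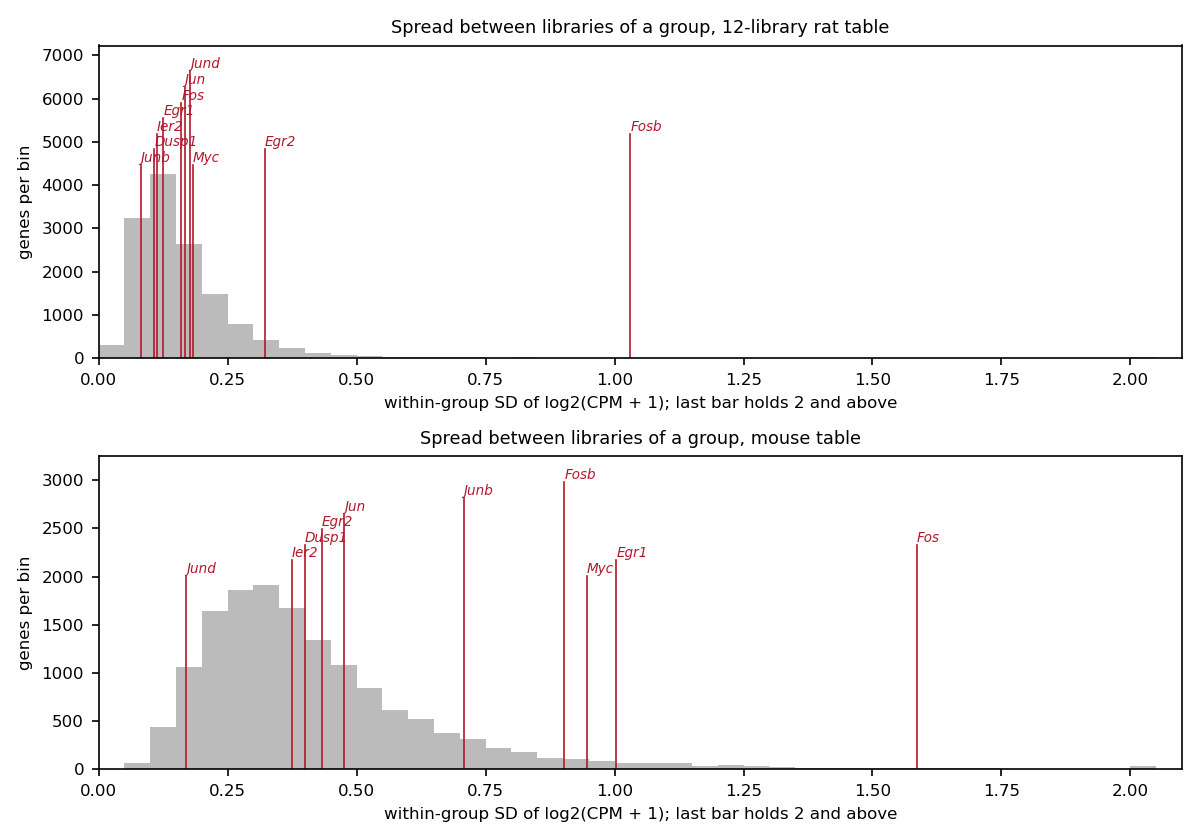
Within-group SD of log2(CPM + 1) for all genes (grey bars, genes per bin) in the 12-library rat table and the mouse table, with the immediate early genes as red lines. Fosb at 1.03 lies far right in rat and Fos at 1.59 far right in mouse, while Jund at 0.169 lies on the left in mouse.

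Levels between genes were compared per kilobase of the longest protein-coding transcript in the mouse annotation (GENCODE M21, GRCm38). Jund, a gene of 1 exon at chr8:70698949-70700616 on the plus strand, had the highest median over the 9 libraries at 145 CPM per kb, and its lowest library, at 120 CPM per kb, was above every value of the other genes, which reached 49.6. Jun (chr4:95049034-95052222, minus strand, 1 exon) had 28.4 CPM per kb, Ier2 (chr8:84661331-84662852, minus strand, 1 exon) 28.0 and Dusp1 (chr17:26505590-26562128, minus strand, 4 exons) 27.0, and the ranges of these 3 overlap. Junb came next, with a range of 5.14 to 24.4 CPM per kb. Fos (chr12:85473890-85477273, plus strand, 4 exons) had 6.4 CPM per kb, with a range of 0.253 to 35.9, next to Myc at 6.2 and Egr1 at 5.78, whose ranges overlap with it. Fosb at 0.336 and Egr2 at 0.304 CPM per kb came last. The rat and mouse tables were normalized apart, so their levels are only set side by side. Fos ran from 111 to 270 CPM over the 16 rat libraries and from 0.533 to 75.6 CPM over the 9 mouse libraries, and Egr1 from 273 to 548 CPM in rat and from 14.2 to 84.1 CPM in mouse.

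Other immediate early genes, 28 names including aliases of which 26 were in each table, were read as a list. In the rat comparisons 25 were tested and none was called. For si-Vldlr 15 of the 25 were positive with a median fold change of 0.07, where 46% of all genes were positive, and 4 had an unadjusted p under 0.05, near the 11.8% of all genes. For Reelin 9 of 25 were positive (58.5% of all genes) with a median of -0.02, and 0 reached that p (1.36%). For Vldlr OE 16 of 25 were positive (42.7%) with a median of 0.06, and 2 reached it (4.52%). For si-Thbs1 16 of 25 were positive (58.4%) with a median of 0.06, and 1 reached it (5.52%). Gadd45b, a growth arrest and stress gene, averaged 41.6 ± 1.69 CPM in si-Vldlr and 30.1 ± 2.28 CPM in si-Control_v (SD, n = 2 each), with limma's adjusted p at 0.25. Arc, best known from neurons, averaged 9.78 ± 1.23 CPM in si-Thbs1 and 15.8 ± 3.16 CPM in si-Control_t (SD, n = 2 each), with limma's adjusted p at 0.718.

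In mouse 23 of these genes were tested and none was called. In Myh6-Cre;Vldlr f/f set against Vldlr f/f 15 of 23 were positive (33.9% of all genes) with a median of 0.19. In Myh6-Cre;Vldlr f/+ set against Vldlr f/f 18 of 23 were positive (41.7%) with a median of 0.39, and in Myh6-Cre;Vldlr f/f against Myh6-Cre;Vldlr f/+ 5 of 23 (39.8%) with a median of -0.18. Atf3, a stress-induced partner of Jun, had 10.8, 34.7 and 39.7 CPM in Myh6-Cre;Vldlr f/f and 14.7, 12.1 and 96.8 CPM in Myh6-Cre;Vldlr f/+, against 4.79, 8.80 and 10.6 CPM in Vldlr f/f. The lowest Cre library, at 10.8 CPM, lay just above the highest Vldlr f/f library, at 10.6 CPM, and groups without overlap were found for 8.52% and 5.97% of all genes in these comparisons. The fold change was 1.57 ± 0.73 (SE) for Myh6-Cre;Vldlr f/f and 1.65 ± 0.73 (SE) for Myh6-Cre;Vldlr f/+, with limma's adjusted p at 0.997 and 0.999. Without Myh6-Cre;Vldlr f/+ replicate 3 the second became 0.72. The other lists held no called gene in any comparison either. They were feedback regulators of MAP kinase signalling (14 tested), upstream kinases and factors (20 in rat, 21 in mouse), the Myc network (9) and heat shock and stress genes (11 in rat, 12 in mouse). Their lowest median fold change was -0.20, for upstream kinases and factors in Myh6-Cre;Vldlr f/f set against Vldlr f/f. The highest was 0.12, for heat shock and stress genes in si-Vldlr against si-Control_v. These medians do not show single genes. Mapk7, an upstream kinase, averaged 65.5 ± 14.6 CPM in Vldlr OE and 0 CPM in Control (SD, n = 2 each), with limma's adjusted p at 0.958. In PBS it averaged 26.9 ± 38.1 CPM (SD, n = 2), so it also differed widely within a group.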

How the data were processed

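RNA-seq values were deposited as 3 CPM tables, 2 of rat and 1 of mouse. The submitters' processing notes name HISAT2 2.1.0, StringTie 1.3.4, edgeR 3.20.9 without settings, and give rn6 for rat and mm10 for mouse as builds. All columns sum to the same total and were matched to samples by name, except 2 headed Blank, assigned to Control by elimination. Left out of each table were 4 rows with repeated, date-like names. Values lie at steps of the most common value divided by 4 (98.01% to 100% of low values whole within 0.05 steps, 66088372 to 97773385 steps per library). A step need not be a read, so the depth in reads is unknown and no count test or counting interval is given. Genes with at least 1 CPM in 2 (rat) or 3 (mouse) libraries were tested on log2(CPM + 1) with limma 3.58.1 in R 4.3.3, tested first on simulated data. All 10 members are named in every comparison. Alternatives were the pseudocount, the filter, the scaling, the groups fitted alone, a replicate block and leaving out each library. Same-numbered libraries of both Cre genotypes correlated at 0.333 to 0.459 in their deviations from the group means, so these numbers were taken to pair them, from the data and not the labels. The members and lists were chosen with earlier results of these data known.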

Additional observations from a re-analysis of the deposited data

How the results depend on the processing

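None of the 10 immediate early genes was called in any of the 7 comparisons under any alternative run: another pseudocount, no filter, median-ratio scaling, the compared groups fitted alone, a replicate block or leaving out each library. Of 339 fold changes under settings other than leaving out a library, 4 changed sign, all under median-ratio scaling: Jun became -0.02 in Reelin against PBS and 0.001 in Vldlr OE against Control, Myc -0.003 in si-Thbs1 against si-Control_t and Jund 0.06 in Myh6-Cre;Vldlr f/f against Myh6-Cre;Vldlr f/+. Of 340 with a library left out, 48 changed sign.

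The number of genes called over the whole table moved more, and the cause was not tested. Fitting the compared groups alone gave 8 genes in the si-Vldlr comparison, 13 in that of Reelin, 8 in that of Vldlr OE and 1 between Myh6-Cre;Vldlr f/f and Vldlr f/f. With no filter there were 4 for Vldlr OE and 0 for si-Thbs1. Leaving out single libraries gave 4 to 167 genes for si-Vldlr, 4 to 9 with Reelin, 2 to 257 with Vldlr OE (80 without Control replicate column 1), 15 to 268 for si-Thbs1, 0 to 1 for each Cre genotype against Vldlr f/f and 0 to 0 between the Cre genotypes. The highest counts came without si-Control_v replicate 1 (167), Vldlr OE replicate 2 (257) and si-Control_t replicate 1 (268), each a group then left with 1 library assumed to vary like the others.

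With the replicate number as a block si-Thbs1 gave 43 genes and 0 immediate early genes. Its same-numbered libraries correlated at 0.409 in their deviations from the group means, those of si-Vldlr and si-Control_v at 0.156 and those of Reelin and PBS at -0.06, with 2 pairs each, which does not settle a pairing. Same-numbered libraries correlated from -0.374 to 0.06 between Myh6-Cre;Vldlr f/f and Vldlr f/f and from -0.545 to -0.05 between Myh6-Cre;Vldlr f/+ and Vldlr f/f, so the numbers do not pair those. The block between both Cre genotypes changed no call. No block could be fitted for Vldlr OE against Control, whose columns carry no replicate number of the labels. Depth in reads is unknown, which limits what can be said of Egr2 and Fosb near 1 CPM in mouse.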

Other observations

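Replicates 3 of both Cre genotypes in mouse carried high levels of several other immediate early genes, which were singled out after their values were seen. The listed genes summed to 2155 CPM in Myh6-Cre;Vldlr f/f replicate 3 and 2758 CPM in Myh6-Cre;Vldlr f/+ replicate 3, and to between 686 and 984 CPM in the other 7 libraries. Ctgf, a secreted matrix protein gene, had 842 and 916 CPM in those libraries and between 58.4 and 166 CPM elsewhere. Nr4a1, an orphan nuclear receptor gene, had 172 and 268 CPM there and between 15.3 and 63.2 CPM elsewhere. Cyr61 had 107 and 209 CPM there and between 21.5 and 47.7 CPM elsewhere. Myc was also highest in these libraries, at 30.1 and 44.1 CPM, while Fos and Fosb were highest in Myh6-Cre;Vldlr f/+ replicate 1.

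By the same measure of likeness as in rat, the genes nearest to Fos over the 9 mouse libraries were Abi2 (0.849), Rpl17-ps3 (0.856), Zfp280d (0.865), Neat1 (0.883) and Rpl17-ps5 (0.911), among 10584 genes, where Fos varied by 1.58 about its mean. These differences are large beside that spread. Rpl17-ps3 and Rpl17-ps5 are pseudogenes whose reads may come from near-identical copies.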
